A study of Mus musculus with 2 samples.

Results

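Among the endothelial cells (ECs) of normal mouse mammary glands, 1170 cells were selected on the joint detection of Car8, Timp4, Lpl, Rassf9, Tcf15 and Bmp6. They made up 1170 of 4940 ECs of the normal library (23.7%, Clopper-Pearson 95% interval 22.5 to 24.9%), and of 9751 barcodes in both libraries of the series. A cell was a member when a unique molecular identifier (UMI, 1 counted molecule) was found for 3 or more of these 6 genes and for fewer than 3 of Aqp7, Cldn15, Chchd10, Spaar, Hrct1 and Gstt2, a set that marks another, lipid-linked capillary group. All ECs had at least 200 genes, under 10% mitochondrial UMIs, no UMI of Ptprc, Myh11, Epcam or Cspg4, and at least 1 UMI of Cdh5 or Pecam1. The other 3770 ECs of the same library formed the comparison.

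The normal library held CD45-/CD31+ cells sorted by FACS from pooled mammary glands of C57BL/6 mice aged 6-8 weeks. A second library held CD45-/CD31+ cells of E0771 mammary tumors, a model grown from mouse mammary carcinoma cells. The title of the normal library calls its cells normal ECs (NECs), while its source and cell type fields carry the words for E0771 and tumor ECs. The title was followed here. Each condition had 1 library, so mice cannot be told apart, no test between conditions was possible, and every interval covers counting error only.

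Capillary ECs are the thin wall across which blood and tissue exchange water, gases and nutrients. In tissues that take up fat, lipoprotein lipase, the product of Lpl, is held on their luminal surface by GPIHBP1 and releases fatty acids from circulating triglycerides, which then enter through CD36 and are bound by FABP4 and FABP5. Tcf15 encodes a basic helix-loop-helix factor that acts with MEOX2 in the fatty acid transport of heart endothelium. Of the other rule genes, Timp4 encodes an inhibitor of matrix metalloproteases, Bmp6 a secreted bone morphogenetic protein, Rassf9 a Ras-association domain protein, and Car8 a carbonic anhydrase relative without enzyme activity that binds an IP3 receptor.

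The levels of the 6 rule genes chose the cells and are given as a description. Levels are UMIs of a gene summed over a group and scaled to counts per 1000000 UMIs of that group (CPM). Timp4 was at 1398 CPM in members and 175 CPM in the other ECs, Tcf15 at 1066 and 223 CPM, and Lpl at 872 and 116 CPM. Rassf9 was at 228 and 40.5 CPM, Car8 at 227 and 19.9 CPM, and Bmp6 at 169 and 30.4 CPM. Tcf15 was found in 1064 members (90.9%), Timp4 in 1027 (87.8%) and Lpl in 978 (83.6%). Rassf9 was found in 493 (42.1%), Car8 in 474 (40.5%) and Bmp6 in 429 (36.7%), so most members qualified through Timp4, Lpl and Tcf15, and fewer than 1 in 2 held a Car8 UMI. The combination of Timp4, Lpl and Tcf15 alone was the most frequent, in 238 members (20.3%).

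Among the members, 534 carried exactly 3 of the 6 genes, 379 carried 4, 195 carried 5 and 62 carried all 6. Just outside the threshold, 730 ECs carried exactly 2 and stayed under the limit on the Aqp7 set. Timp4 was at 990 CPM in the cells with exactly 3 genes and at 271 CPM in those with exactly 2, and Lpl was at 600 and 195 CPM. The limit on the Aqp7 set left out 287 ECs that carried 3 or more of the 6 genes. Of the members, 342 had none of the Aqp7 set, 483 had 1 of its genes and 345 had 2.

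**Figure D1:**
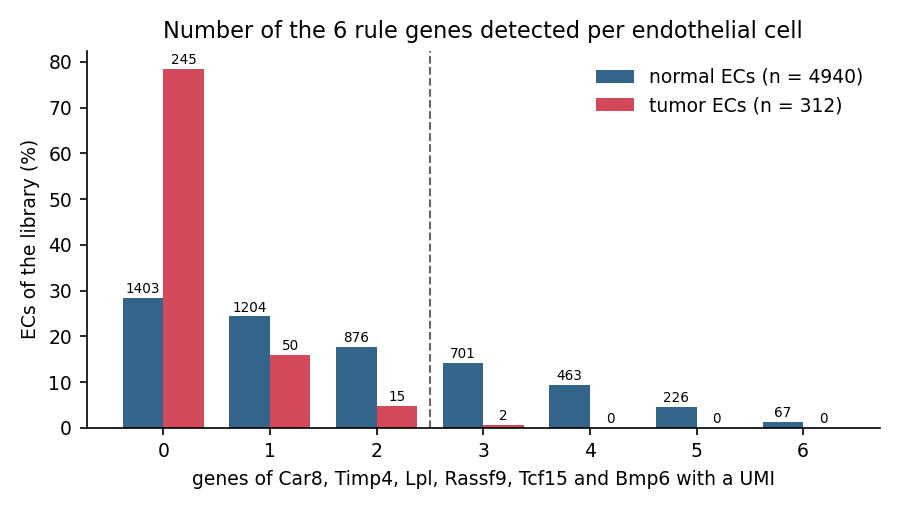
Share of ECs of each library (y axis, percent) by the number of the 6 rule genes with a UMI (x axis), with cell numbers above the bars; the dashed line marks the threshold of 3 genes. Of the normal ECs, 1457 lie to its right, of which 1170 were members after the limit on the Aqp7 set, and of 312 tumor ECs 2 do.

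As a further description of the rule genes, each was summed in the cells that the other 5 select. Car8 was at 206 CPM in the 1079 cells selected on the other 5 and at 28.9 CPM in the rest, and after thinning of each cell to 2000 UMIs it was in 29.7 and 4.77% of them. The 6 genes had been chosen together from these same data, so these values restate the rule and check nothing.

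Detection rules favor deep cells, and depth is therefore given first. Members had a median of 2513.5 UMIs and 1319 genes, and the other ECs 3175 UMIs and 1523 genes, so the members were the shallower group. In 4 equal groups of depth, from the shallowest to the deepest, members were 28.2, 33.4, 19.3 and 13.9% of ECs. Mitochondrial UMIs had a median of 3.56% in members and 3.74% in the others. For shares of cells with a UMI, every cell was thinned to 2000 UMIs, which left out 340 members and 874 other ECs as too shallow. Thinned shares are also given for 698 Epcam-positive cells of the library without a Cdh5 or Pecam1 UMI (median 10806 UMIs), taken as not endothelial. Such a share can hold free RNA and RNA of the cells themselves. These cells were also deeper than ECs before thinning, so their shares do not measure the free RNA in ECs.

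Of 3596 genes with at least 50 CPM in either group, rule genes left out, 76 were at least 2-fold higher in members (2.11% of the genes measured) and 116 at least 2-fold lower (3.23%). The median log2 ratio over all 3596 was 0.05. All 76 were also found in a larger share of members than of other ECs after thinning, and 113 of the 116 in a smaller share. Thinned counts were drawn from the same UMIs, so these counts were largely built in. The share of all 3596 genes that kept their direction was not counted. The largest ratios were those of Stxbp6, Adh1 and Tspan6, and the smallest those of Hbb-bt, Hba-a1 and Glycam1.

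**Figure D2:**
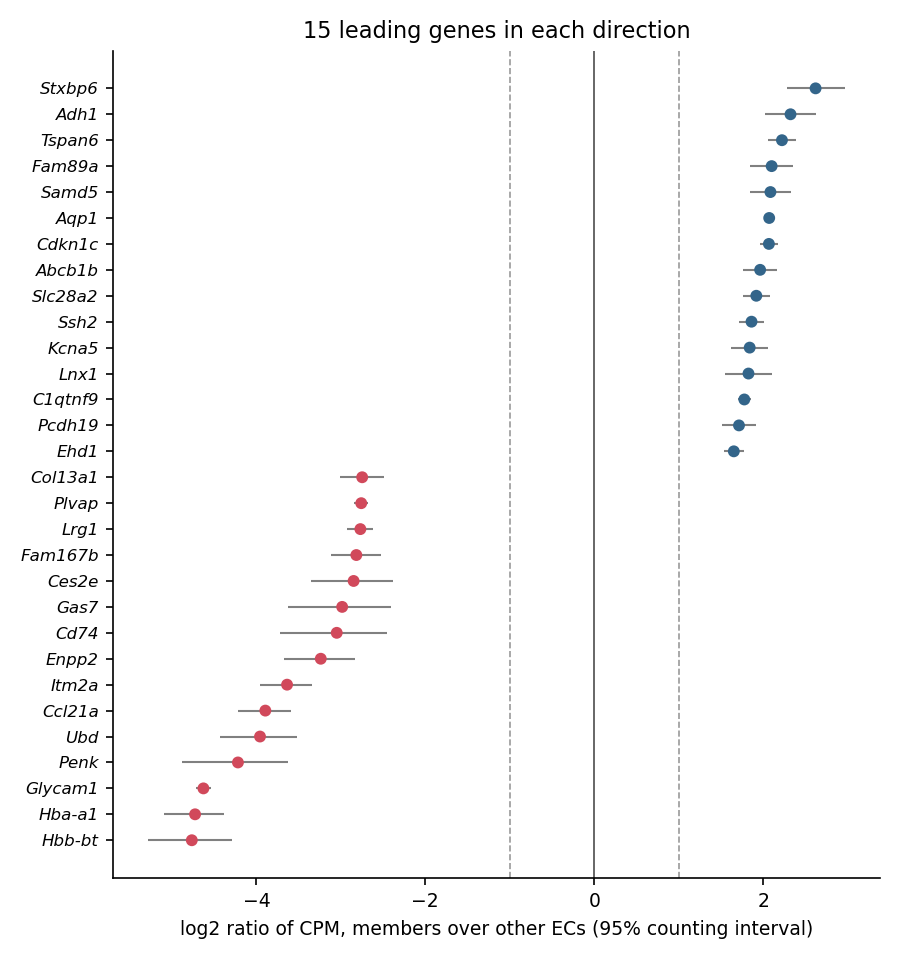
Log2 ratio of CPM in members over the other ECs (x axis) for the 15 genes with the largest and the 15 with the smallest ratio (y axis), with 95% intervals for counting error; dashed lines mark 2-fold. Ratios ran from 1.65 (Ehd1) to 2.62 (Stxbp6) among the former and from -4.76 (Hbb-bt) to -2.75 (Col13a1) among the latter.

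Aqp1, which encodes the water channel aquaporin 1, was the most abundant of the 15 leading genes. It gave 13575 UMIs in members (4004 CPM) and 13279 UMIs in the other ECs (953 CPM), a log2 ratio of 2.07 (2.04 to 2.11). After thinning, it was found in 81.8% of members, 35.3% of the other ECs and 7.20% of the Epcam-positive cells. A member held a median of 8 Aqp1 UMIs per 2000, with a middle range of 2 to 13 and a highest value of 34. Its level was thus high in most but not all members, and 18.2% of thinned members had none.

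C1qtnf9 encodes a secreted protein of the C1q and TNF family, and had 2423 UMIs in members (715 CPM) against 209 CPM in the other ECs, a log2 ratio of 1.78 (1.70 to 1.85). It was found in 71.2% of thinned members, 26.9% of other ECs and 0.881% of Epcam-positive cells. Cdkn1c, the gene of the cyclin-dependent kinase inhibitor p57, was at 438 and 105 CPM (2.07, 1.96 to 2.17) and was found in 44.8 and 14.5% of thinned cells. Both genes thus showed the difference in the number of cells that held them, as Aqp1 did.

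The promoters of Aqp1, C1qtnf9 and the rule gene Timp4 are shown because these 3 genes gave many UMIs in members and 1 of the rule genes, Tcf15, encodes a factor of a class that binds E-boxes. Each line holds the 250 bases before the start of the gene, 5′ to 3′ on the gene's strand, from RefSeq (GRCm38.p6), with the E-box letters CANNTG in capitals. Aqp1 lies at chr6:55336049-55336298 (plus strand), C1qtnf9 at chr14:60767884-60768133 (plus strand) and Timp4 at chr6:115252206-115252455 (minus strand).
Aqp1: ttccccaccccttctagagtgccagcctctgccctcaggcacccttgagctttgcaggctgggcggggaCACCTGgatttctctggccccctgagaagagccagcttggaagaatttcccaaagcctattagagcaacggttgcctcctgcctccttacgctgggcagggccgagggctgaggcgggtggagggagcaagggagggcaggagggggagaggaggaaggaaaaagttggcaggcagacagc
C1qtnf9: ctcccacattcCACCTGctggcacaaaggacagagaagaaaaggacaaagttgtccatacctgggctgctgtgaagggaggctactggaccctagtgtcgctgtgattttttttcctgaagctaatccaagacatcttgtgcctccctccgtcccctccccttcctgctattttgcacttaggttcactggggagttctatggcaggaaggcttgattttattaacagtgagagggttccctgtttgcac
Timp4: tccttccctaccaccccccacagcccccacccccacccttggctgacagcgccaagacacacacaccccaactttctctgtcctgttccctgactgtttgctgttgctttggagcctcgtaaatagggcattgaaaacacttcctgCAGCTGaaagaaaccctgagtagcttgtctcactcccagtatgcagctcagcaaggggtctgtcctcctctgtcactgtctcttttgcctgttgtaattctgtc

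Windows of 300 bases (250 before and 50 after the start) were found for 13 of the 15 leading genes, and all 13 held CANNTG on either strand, as did 72.1% of all 27025 promoters. The ETS core GGAA was in 13 of 13 and in 95.9% of all promoters. The homeodomain letters TAATTA were in 0 of 13 against 5.31% of all, and AGGTCA, a nuclear receptor half-site, in 0 of 13 against 16.04%. The searched words can overlap each other by a few letters, and a match is a description of letters only.

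The other leading genes were lower in level. Tspan6, a tetraspanin of the cell membrane, was at 196 CPM in members and 42.0 CPM in the others (log2 ratio 2.22), and was in 31.2 and 7.77% of thinned cells. Stxbp6, whose product binds the SNARE proteins of vesicle fusion, had the largest ratio (2.62, 2.28 to 2.97) on 178 and 119 UMIs, and was in 10.7 and 1.62% of thinned cells. Its share in the Epcam-positive cells was 5.43%, above that of the other ECs. Samd5 (2.09) was likewise in 14.5% of members, 3.14% of other ECs and 7.93% of Epcam-positive cells. Both genes thus also had UMIs in cells that are not endothelial.

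By role, the transporters and channels among the 15 were Aqp1, the P-glycoprotein gene Abcb1b (115 and 29.5 CPM, log2 ratio 1.96), the nucleoside transporter gene Slc28a2 (179 and 47.4 CPM, 1.92) and the potassium channel gene Kcna5 (97.6 and 27.3 CPM, 1.84). Ssh2, which encodes a phosphatase of the actin regulator cofilin, was at 198 and 54.5 CPM (1.86), and Ehd1, an ATPase of endocytic recycling, at 304 and 96.7 CPM (1.65). Adh1, an alcohol dehydrogenase that also oxidizes retinol, was at 61.1 and 12.2 CPM (2.32). Fam89a (2.10), Lnx1 (1.83), a ubiquitin ligase gene, and Pcdh19 (1.71), a protocadherin gene, completed the 15. For each of the 15, the 10 richest members held at most 12.9% of the members' UMIs, so no ratio came from a few cells.

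Of the fatty acid handling genes, the carrier gene Fabp5, the factor gene Meox2 and Gpihbp1, the anchor of lipoprotein lipase, were at least 2-fold higher in members. Of 31 genes in the list, 17 reached 50 CPM, 3 were at least 2-fold higher, 2 at least 2-fold lower, and their median log2 ratio was 0.17. Fabp5 was at 1861 CPM in members and 760.0 CPM in the others (1.29, 1.25 to 1.34), Meox2 at 244 and 104 CPM (1.22), and Gpihbp1 at 2078 and 999 CPM (1.06). Cd36 was at 3064 and 1710 CPM (0.84), and Fabp4 at 29928 and 18580 CPM (0.69). Rbp7, a retinol-binding protein gene of the same lipid-binding family, was at 523 and 1126 CPM (-1.11), and the acyl-CoA synthetase gene Slc27a3 at 33.6 and 71.3 CPM (-1.08). The summed list was at 40615 and 26077 CPM (log2 ratio 0.64), and without Fabp4, a choice made after the data had been seen, the ratio was 0.51.

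Thinned cells showed how these genes were spread. Every thinned member held Fabp4, with a lowest value of 2, a median of 52.5 and a highest value of 251 UMIs per 2000, while the median of the other ECs was 22. Cd36 was absent from 2.65% of members and 28.3% of other ECs, Gpihbp1 from 9.04 and 39.4%, and Fabp5 from 15.9 and 50.3%. Members had a median of 6 Cd36 UMIs and the other ECs 2. The groups overlapped for each of these genes, since the highest values of the other ECs (27 for Cd36, 19 for Gpihbp1 and 53 for Fabp5) lay in or above the range of the members.

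Genes that act beside Lpl, Tcf15 and Bmp6, and took no part in the rule, included some in each direction. Of 5 measured LPL partners, Gpihbp1 was at least 2-fold higher and none lower, and Angptl4, an inhibitor of the lipase, was at 97.6 and 145 CPM (-0.57). Of 8 measured Tcf15 partners and relatives, Meox2 (1.22) was at least 2-fold higher and Meox1 (38.9 and 103 CPM, -1.40) at least 2-fold lower, while the E-protein genes Tcf3 (0.03), Tcf4 (0.09) and Tcf12 (0.10) were near 0. The Id genes, whose products bind E-proteins, had log2 ratios of 0.32 (Id1), 0.36 (Id2) and 0.34 (Id3). Of 6 BMP and TGF-beta receptor genes measured, none was 2-fold higher and Tgfbr2 was lower (92.3 and 205 CPM, -1.15). No other BMP ligand of the list reached 50 CPM, and Bmp2 was at 6.19 CPM in members and 25.8 CPM in the others. Of 7 effectors and targets of BMP signaling, none passed 2-fold in either direction, with a median of 0.20.

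Relatives of the other rule genes were mostly within 2-fold. Of 8 measured TIMPs and metalloproteases, Timp2 was lower (26.8 and 85.3 CPM, -1.67) and none was 2-fold higher, although the membrane-bound protease gene Mmp15 came near it (137 and 76.1 CPM, 0.85). Timp3 was at 786 and 1208 CPM (-0.62). Of 5 carbonic anhydrases and IP3 receptors, none passed 2-fold, and the largest ratio was that of the IP3 receptor gene Itpr2 (134 and 74.6 CPM, 0.84). Rassf3, at 190 and 98.2 CPM (0.95), was the higher of 2 measured RASSF genes.

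The label capillary was checked against 16 other capillary genes that took no part in the rule. Of 15 measured, 9 had intervals above 0 and 3 below, 2 were at least 2-fold higher (Aqp1 and Gpihbp1), 2 at least 2-fold lower (Rbp7 and Ramp3), and the median log2 ratio was 0.27. Car4, a carbonic anhydrase of the capillary surface, was at 383 and 257 CPM (0.57), Cd300lg at 762 and 630 CPM (0.27) and Rgcc at 1506 and 1300.5 CPM (0.21). Btnl9 was lower at 233 and 434 CPM (-0.90), and Kdr, the main VEGF receptor gene, was at 1125 and 1148 CPM (-0.03). The capillary list as a sum was at 19985 and 14120 CPM (0.50), and in the 531 cells of the Aqp7 set at 19638 CPM (members over these cells 0.025). Its sum was thus higher against all other ECs but hardly against the group most like the members. Aqp1 alone gave 4004 CPM of this sum in members, 953 CPM in the other ECs and 1520 CPM in the cells of the Aqp7 set. The list was not summed without it. Genes of this list thus went both ways.

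**Figure D3:**
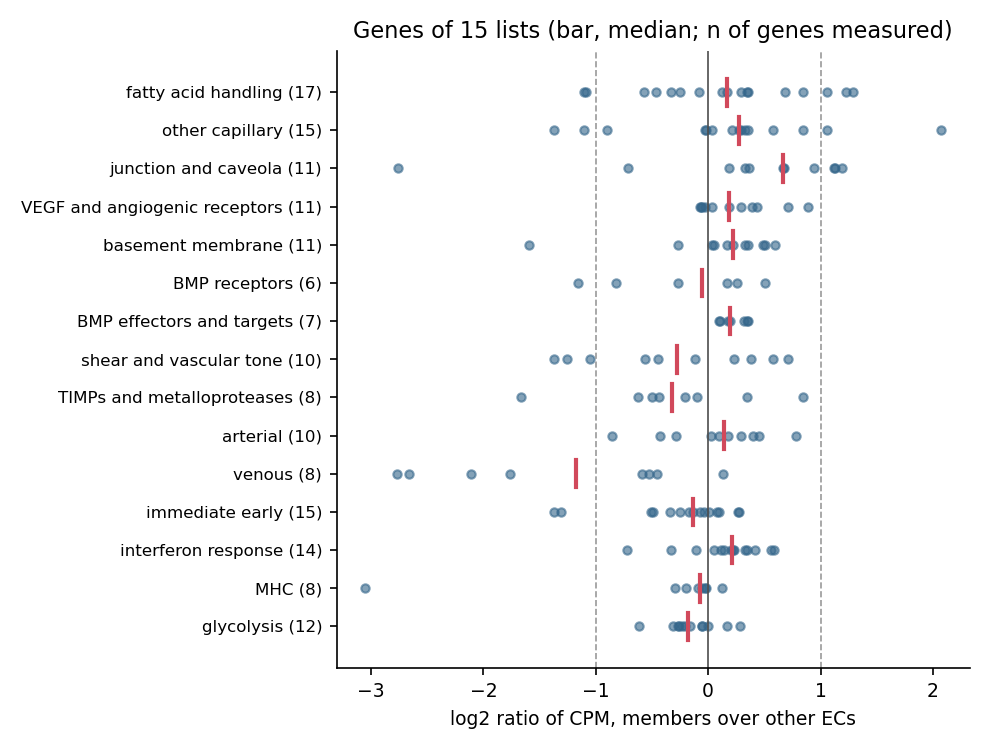
Log2 ratio of CPM in members over the other ECs (x axis) for each measured gene (points) of 15 lists (y axis, number of measured genes in parentheses), with list medians as bars and 2-fold as dashed lines. The medians lay between -1.17 (venous) and 0.66 (junction and caveola), and over all 3596 genes the median was 0.05.

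Plvap, which forms the diaphragms of fenestrae and caveolae, was lower in members than in the other ECs. It gave 1167 UMIs in members (344 CPM) and 32451 in the other ECs (2328 CPM), a log2 ratio of -2.76 (-2.84 to -2.67). After thinning, it was found in 17.95% of members, 69.9% of the other ECs and 2.20% of Epcam-positive cells. It was also low in the 531 other ECs with 3 or more genes of the Aqp7 set, at 554 CPM (members over these cells -0.69), and ranged from 1688 to 3088 CPM in the other groups of ECs. The caveolar coat genes went the other way. Cav1 was at 2092 and 917 CPM (1.19), Cavin2 at 2247 and 1027 CPM (1.13), Cavin1 at 1155 and 533 CPM (1.12), and Cav2 just missed 2-fold at 629 and 327 CPM (0.94). Against the cells of the Aqp7 set, Cav1 (1540 CPM), Cavin2 (1699 CPM) and Cavin1 (844 CPM) were higher only within 2-fold (0.44, 0.40 and 0.45). Of 11 junction and caveola genes, these 3 were at least 2-fold higher than in all other ECs and Plvap lower, with a median of 0.66. The junction genes Jam2 (0.68) and Tjp1 (0.66) were higher within 2-fold, Cldn5 (0.33) less so, and Emcn was lower at 783 and 1286 CPM (-0.72). Ehd2, whose product caps caveolae, was also among the 76 (1.18), a gene singled out after its value was seen.

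Venous genes were lower. Of 8 measured, 4 were at least 2-fold lower and none higher, with a median of -1.17. They were Lrg1 (101 and 691 CPM, -2.77), the chemokine receptor gene Ackr1 (18.9 and 119 CPM, -2.66), the P-selectin gene Selp (42.8 and 184 CPM, -2.11) and Vcam1 (28.6 and 96.9 CPM, -1.76). Vwf was at 171 and 234 CPM (-0.45) and Ephb4 at 107 and 97.9 CPM (0.13). The summed list was at 573 and 1617 CPM (-1.497), and when arterial, venous and Prox1-positive cells were taken out of the comparison the ratio was -0.19. Those cells were taken out by the genes of these same lists and members were not filtered, so a shift toward 0 was built in. At least 3 venous genes were found in 88 members (7.52%) and 660 other ECs (17.5%).

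For the arterial genes, no direction could be given. Of 10 measured, none passed 2-fold, and the median was 0.14. The summed list had a log2 ratio of 0.13 (0.08 to 0.17), which turned to -0.22 when the 6 genes were counted after thinning and to -0.19 with the mean over cells. Gja4, a connexin gene of arteries, was at 50.7 and 91.8 CPM (-0.86), Sox17 at 342 and 278 CPM (0.30) and Dll4 at 156 and 114 CPM (0.45). Stmn2 had the largest ratio of the list (288 and 167 CPM, 0.78). At least 3 arterial genes were found in 326 members (27.9%) and 1170 other ECs (31.0%). These 326 members had 2498 CPM of Aqp1 and 927 CPM of Rbp7, and the 844 members with fewer had 4829 and 302 CPM. Median depth was 3114 and 2295.5 UMIs in these groups of members, and its part in the difference was not tested. Their Plvap levels were 357 and 337 CPM.

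Other lists showed few genes past 2-fold. Of 11 VEGF and angiogenic receptor genes, none passed 2-fold, and Aplnr, the apelin receptor gene, came nearest (281 and 152 CPM, 0.89). Of 11 basement membrane genes, Col15a1 was lower (78.2 and 236 CPM, -1.60) and none higher, while the collagen IV genes Col4a1 (0.51) and Col4a2 (0.49) were higher within 2-fold. Of 10 genes of shear and vascular tone, Ramp3 (-1.37), Ednrb (-1.26) and Ptgs1 (-1.05) were lower, none was 2-fold higher, and the flow-responsive genes Nos3 (115 and 70.2 CPM, 0.71) and Klf2 (2068 and 1390.5 CPM, 0.57) were higher within 2-fold. None of 14 interferon response genes (median 0.21) or 12 glycolysis genes (median -0.18) passed 2-fold. Of 8 MHC genes, only Cd74 did, at 6.78 and 56.1 CPM (-3.05). Of 3 measured tip genes, Esm1 was lower at 63.4 and 349 CPM (-2.46).

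Immediate early genes respond to stress, tissue dissociation included, and their levels are given for that reason. Of 15 measured, none was 2-fold higher, and Nr4a1 (110 and 285 CPM, -1.37) and Ier3 (824 and 2048 CPM, -1.31) were lower, with a median of -0.14. Fos was at 1788 and 2264 CPM (-0.34). The list as a sum was at 12705 and 15690 CPM (-0.30). The direction was not the same against each group of other ECs, as defined below. The sum was lower in the cells of the Aqp7 set, at 10359 CPM (members over these cells 0.29), and in the venous group, at 10993 CPM. It was higher in the arterial group, at 17707 CPM, and in the remaining cells, at 18393 CPM. Among members, Fos was very unevenly spread, with none in 59.0% of thinned members and up to 44 UMIs in 1 cell. Its variance over mean was 14.7, against a median of 1.06 over 3189 genes. The part of this stress response in the other differences was not tested.

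**Figure D4:**
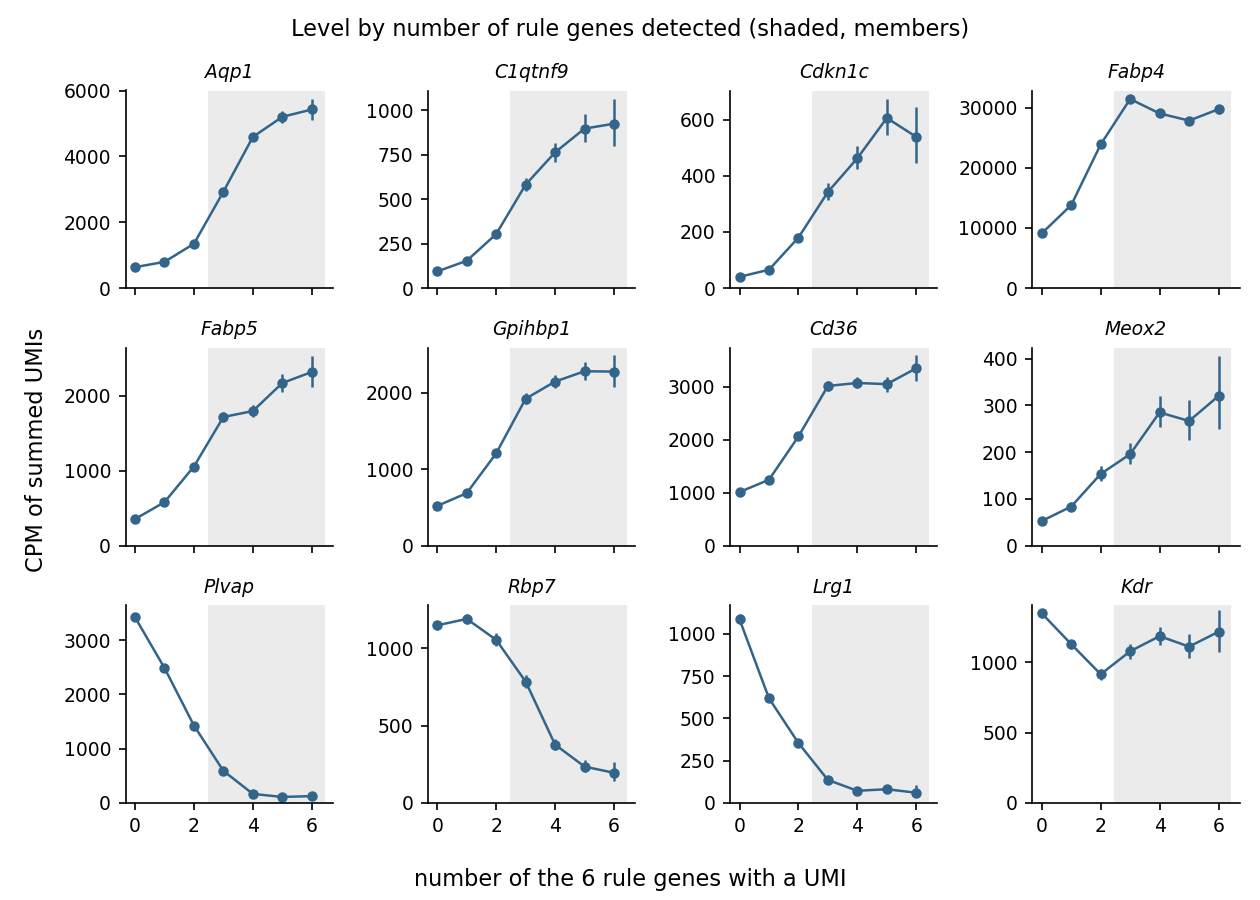
CPM of 12 genes (y axes, 1 panel each, with Poisson 95% intervals) in ECs grouped by the number of the 6 rule genes with a UMI (x axes), cells with 3 or more genes of the Aqp7 set left out; the shaded range holds the members. Aqp1 ran from 637 to 5424 CPM and Plvap from 3421 to 125 CPM from 0 to 6 genes.

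The levels of some genes outside the rule followed the number of rule genes detected. Aqp1, C1qtnf9 and Plvap were named by the split at 3 of these same genes, so a step there was built in. From cells with none of the 6 to cells with all 6, Aqp1 was at 637, 798, 1347, 2928, 4591, 5201 and 5424 CPM. At the threshold itself, Aqp1 was at 1347 CPM in cells with 2 rule genes and 2928 CPM in cells with 3, and C1qtnf9 at 304 and 581 CPM. Plvap was at 1426 CPM with 2 and 590 CPM with 3. It stood at 166, 110 and 125 CPM with 4, 5 and 6, so the members with 3 genes carried most of the members' Plvap. Rbp7 was at 784 CPM with 3 genes and 195 CPM with 6. Fabp4, at 31412 CPM with 3 and 29719 CPM with 6, and Cd36, at 3019 and 3355 CPM, did not increase in the same way. Kdr lay between 914 and 1346 CPM throughout. The median depth of these groups fell from 3260 UMIs with none of the genes to 2391 with 3. It then rose to 2510, 2644 and 3033.5 with 4, 5 and 6, so among members depth rose with the number. The part of depth in these levels was not tested.

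Several of the lowest ratios were those of genes with most of their UMIs in few cells, in members as in the others. Glycam1, a mucin-like ligand of L-selectin in high endothelial venules, was at 319 CPM in members and 7868 CPM in the others (-4.63). After thinning it was found in 24.0% of members, 25.2% of the others and 17.3% of Epcam-positive cells, and the 10 richest cells held 58.0% of the members' and 68.7% of the others' Glycam1 UMIs. Of the hemoglobin genes, Hbb-bt was at 10.6 and 288 CPM (-4.76) and in 1.08 and 1.10% of thinned cells, with 88.9% of the members' and 87.6% of the others' UMIs in 10 cells. For Ccl21a (-3.89) these shares were 77.3 and 66.1%, and for Ubd (-3.96) 50.0 and 55.1%. Hba-a1 shares its sequence with Hba-a2, and Ccl21a with other Ccl21 copies, so reads between these copies are uncertain.

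Other genes were lower across many cells, as Plvap was, and for 3 of them the interval of the ratio to the 531 cells with 3 or more genes of the Aqp7 set included 0. Itm2a was in 3.49% of thinned members and 26.2% of thinned other ECs (26.8 and 334 CPM, -3.64), and Fam167b in 4.82 and 27.6% (29.5 and 208 CPM, -2.82). The collagen gene Col13a1 was in 4.82 and 30.0% (37.2 and 249 CPM, -2.75) of thinned cells. Lrg1 was in 7.71% of thinned members, 32.4% of the others and 21.7% of Epcam-positive cells, so its share in members lay below that of the Epcam-positive cells. The carboxylesterase gene Ces2e (-2.85) was in 1.45 and 12.9%, and Gas7 (-2.98) in 1.08 and 8.74%. Penk, the proenkephalin gene, was in 0.361 and 7.08% (6.78 and 126 CPM, -4.22). The autotaxin gene Enpp2 (-3.24) was in 2.29 and 8.36%. The Epcam-positive cells had at most 1.47% for the genes of this paragraph other than Lrg1. For Itm2a, Fam167b and Col13a1, the 10 richest of the others held at most 6.08% of their UMIs. In the cells of the Aqp7 set Col13a1 was at 33.2 CPM (members over these cells 0.16, -0.26 to 0.59), Ces2e at 15.96 CPM (-0.51, -1.21 to 0.19) and Gas7 at 11.1 CPM (-0.59, -1.45 to 0.27), against 37.2, 11.2 and 7.37 CPM in members.

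The nearest relatives of the members were 531 ECs with 3 or more genes of the Aqp7 set, 287 of which also carried 3 or more of the 6 genes. Of 3533 genes measured, 41 were at least 2-fold higher in members than in these cells (1.16%) and 41 at least 2-fold lower (1.16%). Of the 76 genes higher than in all other ECs, which include these cells, 72 were above these cells and 20 at least 2-fold above. Aqp1 was at 4004 and 1520 CPM (1.40, 1.34 to 1.45), Samd5 at 83.8 and 26.6 CPM (1.65), Stxbp6 at 52.5 and 19.1 CPM (1.46) and Ehd1 at 304 and 123 CPM (1.30). Of the other leading genes, Pcdh19 (1.07), Fam89a (1.06) and Tspan6 (1.05) also passed 2-fold. Cdkn1c (0.88), Ssh2 (0.86), Adh1 (0.71), Slc28a2 (0.69), C1qtnf9 (0.62), Lnx1 (0.52), Abcb1b (0.50) and Kcna5 (0.31) did not, although each interval lay above 0. Some likeness was built in, since 287 of the Aqp7-set cells carried 3 or more of the 6 genes. Stmn2, of the arterial list, was at 288 and 95.3 CPM (1.60). On the lower side stood Angptl4 (97.6 and 389 CPM, -1.99) and Plin2, the coat gene of lipid droplets (95.6 and 285.5 CPM, -1.58). Fatty acid handling genes as a sum were at 40615 CPM in members and 55952 CPM in these cells (-0.46), and Fabp4 at 29928 and 42967 CPM. Gpihbp1 (-0.22) and Cd36 (-0.29) lay close to 0, Fabp5 was at 1861 and 1683 CPM, and Meox2 at 244 and 207 CPM (0.24).

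**Figure D5:**
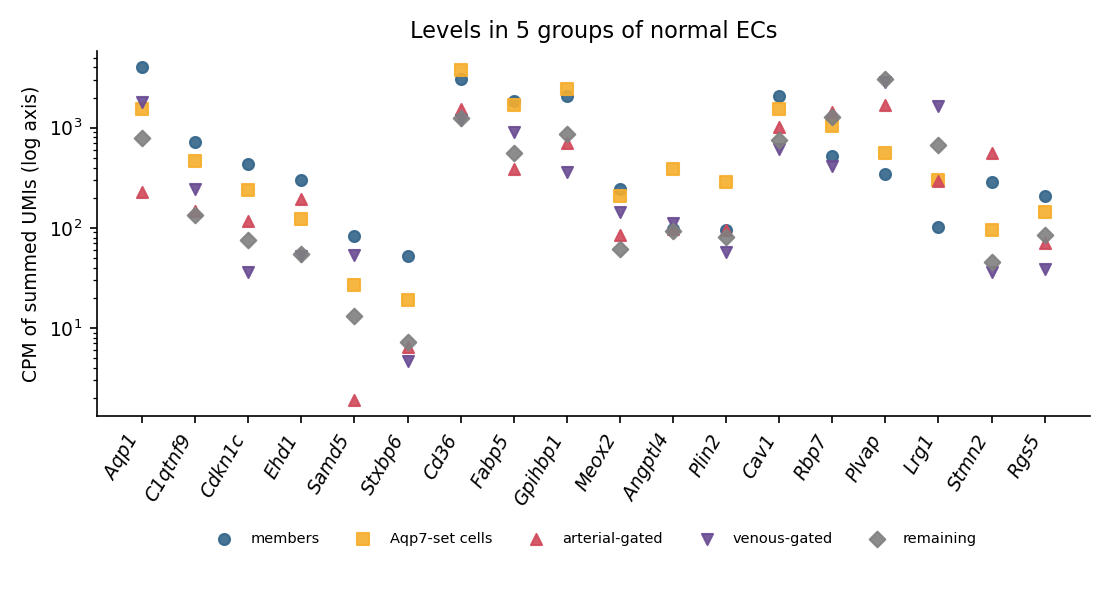
CPM (y axis, log scale) of 18 genes in the 1170 members and 4 groups of the other normal ECs. They were 531 with 3 or more genes of the Aqp7 set, an arterial group of 870, a venous group of 470 and 1899 remaining. The arterial and venous groups had 3 or more genes of their own list and fewer than 3 of the other list and of the Aqp7 set. Cells with 3 or more genes of both lists, and fewer than 3 of the Aqp7 set, are among the remaining. Aqp1 was at 4004 CPM in members and between 228 and 1808 CPM in the other groups.

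Across the groups of other ECs, the order of the levels was not the same for each leading gene. Aqp1 was at 1808 CPM in the 470 cells of the venous group and 1520 CPM in the cells of the Aqp7 set. It was at 788 CPM in the 1899 remaining cells and 228 CPM in the 870 cells of the arterial group. For C1qtnf9, the order began with the cells of the Aqp7 set (465 CPM), with 242 CPM in the venous cells and 146 and 135 CPM in the arterial and remaining cells. Ehd1 was second in the arterial cells, at 195 CPM. Of the 76 genes, 74 were at least 2-fold above the remaining cells, 69 above the venous cells and 56 above the arterial cells. These groups are parts of the other ECs against which the 76 were chosen, so high counts were largely built in. The share of all measured genes that pass 2-fold against each group was not counted.

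Markers of other cells were counted in the members. Rgs5, a pericyte gene, was at 206 CPM in members and 82.9 CPM in the others (1.31), while the other 6 pericyte genes lay between 5.01 and 13.3 CPM in members. In particular, Pdgfrb was at 5.01 and 10.8 CPM. At least 3 pericyte genes were found in 14 members (1.197%) and 47 other ECs (1.25%). In the 960 members without an Rgs5 UMI, Aqp1 was at 3930 CPM, C1qtnf9 at 730 CPM and Plvap at 372 CPM. In the 210 members with such a UMI, these genes were at 4298, 654 and 233 CPM. Pdgfrb was at 19.1 CPM in the 210 and 1.48 CPM in the 960. Skeletal muscle genes were low but higher in members, at 52.5 CPM for the 5 genes together against 15.2 CPM, and were found in 8.80% of thinned members and 3.004% of thinned other ECs. Acta1 was at 12.1 and 2.30 CPM and Mylpf at 30.1 and 11.2 CPM. The 1020 members without a skeletal muscle UMI had 3932 CPM of Aqp1 and 354 CPM of Plvap, and the 150 with one had 4411 and 291 CPM.

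Of the remaining lists, 10 members had 3 or more adipocyte genes (0.855%) against 34 other ECs (0.902%), and their sum was at 79.3 and 97.7 CPM. Adipoq was at 3.83 and 5.38 CPM. Fibroblast genes were at 24.8 and 71.8 CPM, epithelial genes at 139.8 and 119.9 CPM, immune genes at 12.4 and 19.4 CPM, and smooth muscle genes at 115 and 156 CPM. Salivary genes, at 2490 and 2099 CPM, had a UMI in 96.2% of members and 95.8% of the others, and in 90.6 and 85.2% of thinned cells. No member had 3 or more lymphatic genes, which allows a share of up to 0.256% by 3 counts of the total and 0.315% by the Clopper-Pearson interval, and 18 other ECs had. Proliferation genes were at 66.1 and 128 CPM. The part of these cells' RNA in the differences above was not tested, and doublets were neither called nor removed beyond the 4 marker genes. With the deepest 5% of ECs left out, 70 genes were 2-fold higher and 117 lower.

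The rule found 2 members among 312 tumor ECs (0.641%, 0.0777 to 2.30%), although these were deeper, with a median of 19297.5 UMIs. After thinning there were none among 288, which allows a share of up to 1.04% by 3 counts of the total and 1.27% by the Clopper-Pearson interval, while in the normal library 18.4% of thinned ECs met the rule. No more than 3 barcodes occurred in both libraries, none among ECs. In tumor ECs Timp4 gave 1 UMI, Car8 2 UMIs and Lpl 20 UMIs (2.29 CPM), against 414, 60.4 and 264 CPM in all normal ECs. Of genes outside the rule, Cdkn1c was at 2.06 and 170 CPM, Fabp4 at 1160 and 20801 CPM and Cd36 at 130 and 1975 CPM, whereas Gpihbp1 was at 996 and 1210 CPM and Tspan6 at 95.3 and 72.1 CPM. Library and condition cannot be told apart in these values.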

How the data were processed

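Both libraries were made with 10x Genomics droplets and deposited by the authors as tables of UMI counts per gene and barcode, without normalization. Per the labels, reads were mapped to mm10 with Cell Ranger and then analysed in Seurat. The version of Cell Ranger is not given in the sources used here. Both tables list only barcodes of 500 or more UMIs, and the normal table holds 40914092 UMIs in 9047 barcodes.

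From these counts, ECs and members were selected as described, with the limits on genes and mitochondrial UMIs of the study's methods. Cells are not replicates, and with 1 library per condition no test was made. UMIs were summed over cells and divided by the group's total (CPM). Shares have Clopper-Pearson, sums Poisson and ratios exact conditional binomial 95% intervals, for counting error only. A group under 3 UMIs was set to 3. Genes entered with 50 CPM in either group and 10 UMIs in all. Named genes were the rule genes, the 15 with the largest and 15 with the smallest ratio (50 UMIs or more, thinned share going the same way, without mitochondrial, ribosomal, salivary, milk and model genes), and the gene lists. The members and lists were chosen with earlier results of these data known. The ratio was tested on simulated data. Promoters came from RefSeq, and Python 3.11.15, numpy 2.4.6, scipy 1.17.1, pandas 2.3.3 and matplotlib 3.10.9 were used. Alternatives changed each filter, the rule, depth, the comparison cells and the minimum level.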

Additional observations from a re-analysis of the deposited data

Results flagged for a closer look

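The 4 marker genes removed 1724 cells from the normal library, of which only 698 Epcam-positive cells entered the main results, for their thinned shares. Removed cells with a Cdh5 or Pecam1 UMI were put back in an alternative below. Among the 1724 cells, 209 (12.1%, Clopper-Pearson 95% interval 10.6 to 13.8%) had a UMI of 3 or more of the 6 rule genes. This stood out because the 209 cells lay outside the comparison of members with other ECs. Among the 4940 ECs, before the limit on the Aqp7 set, the share was higher, at 29.5% (1457 cells). The 209 cells had a median of 6174 UMIs, against 2513.5 in members, and 173 of them had a UMI of Cdh5 or Pecam1. By marker, the share was 24.8% of the 230 cells with a Cspg4 UMI, 21.7% of the 479 with a Myh11 UMI, 13.7% of the 51 with a Ptprc UMI and 8.03% of the 1233 with an Epcam UMI. The part of their higher depth in these shares was not tested.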

How the results depend on the processing

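No paired analysis was possible because each condition has 1 library. Of 100 values recomputed, 43 stayed inside the main interval, or within 1.5 times the main count, 52 moved and 5 turned their sign, all 5 in the arterial sum; the cause was not tested. Log2 ratios of list sums below are in the order fatty acid, other capillary, arterial, venous and immediate early, and those not given stayed.

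With under 5% mitochondrial UMIs, members were 25.5% of ECs, fatty acid genes were at 0.66, arterial at 0.29 and venous at -1.76. With UMIs of both Cdh5 and Pecam1, immediate early genes were at -0.28. With no cells removed for the 4 marker genes, the sums were 0.81, 0.66, 0.35, -1.23 and -0.14. With 2 or more of the 6 genes, members were 38.5%, 37 genes were higher and 59 lower, and the sums were 0.58, 0.30, 0.48, -0.85 and -0.19. With 4 or more, members were 12.9%, and fatty acid genes were at 0.51, capillary at 0.54, arterial at -0.076 and immediate early at -0.39. Without the limit on the Aqp7 set, members were 29.5%, with sums of 1.05, 0.61, -0.061, -1.75 and -0.42. With the 6 genes counted after thinning, members were 18.4%, with sums of 0.72, 0.56, -0.22, -1.96 and -0.47.

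Without the deepest 5% of cells, fatty acid genes were at 0.57, capillary at 0.44, arterial at -0.0082 and immediate early at -0.37. At 2000 to 6000 UMIs these were 0.58, 0.44, 0.032 and -0.34. With others free of arterial, venous and Prox1 cells, the sums were 0.50, 0.23, 1.68, -0.19 and -0.47. The arterial and venous lists themselves chose the cells left out, and members were not filtered. The shifts of the arterial and venous sums were thus built in. By the mean over cells, fatty acid genes were at 0.52, capillary at 0.49, arterial at -0.19 and immediate early at -0.36. With a minimum of 20 CPM, 120 genes were higher and 205 lower, and with no minimum 396 and 906. After the data had been seen, Fabp4 was left out of the fatty acid sum (0.51), and other ECs with 3 or more venule, lymphatic or red cell genes were left out of the comparison, after which 69 genes were higher and 107 lower.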

Other observations

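Genes outside all lists stood apart within the members. Mgp, which encodes matrix Gla protein, was found in 3.13% of 830 thinned members with a variance over mean of 44.4, against a median of 1.06 over 3189 genes. Cxcl10, an interferon-induced chemokine gene, was in 5.42% of them with a value of 6.04, and Iigp1, an interferon-induced GTPase gene, in 48.0% with a value of 5.71. These genes were named after their values had been seen, and each value describes cells of 1 library.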
